A study of Mus musculus with 4 samples.

Results

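The cells described here are mesenchymal cells of the E10.5 mouse heart dissection that carried both Crabp1 and Foxf1 RNA. They were 215 of the 28025 cells kept from 4 single-cell libraries. Cells were chosen by their measured counts: a cell was taken when it held at least 3 unique molecular identifiers (UMIs, counted RNA molecules) of Crabp1 and at least 1 of Foxf1, none of Isl1, of Cdh5 and Pecam1 or of Epcam, and fewer than 5 Tnnt2 UMIs per 10000. The last 4 limits removed cells with RNA of second heart field progenitors, endothelium, epithelium and cardiomyocytes. These 7 genes were measured in the same cells, so their values below describe the selection and were given no test. The cells that met every other limit but had no Foxf1 UMI, 1091 in all, served for comparison and are called Foxf1-negative.

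The hearts came from C57BL/6J embryos that were either wild-type (Wt) or homozygous for the I383V substitution in CYP51, a sterol demethylase of cholesterol synthesis (Ho), with 2 libraries of each genotype. The substitution was introduced into the germline with CRISPR/Cas9 and the line was backcrossed to C57BL/6, and the labels give CRISPR/Cas9 as the treatment of all 4 samples, the wild-type ones included. Hearts were dissected, digested with collagenase and freed of red blood cells before loading, and neither the number of hearts per library nor their litters were stated. No library was sorted for these cells, and how much neighbouring tissue came along with the dissection was not measured.

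Foxf1 encodes a forkhead transcription factor of splanchnic mesoderm, the layer that surrounds the pharynx and foregut and that also supplies progenitors to the poles of the heart. It is a known response gene of hedgehog signalling: Sonic hedgehog made by pharyngeal and foregut endoderm binds the receptor PTCH1 on the mesenchyme next to it, which frees SMO and lets the GLI factors act, and Ptch1, Gli1 and Hhip are then transcribed as feedback genes. Crabp1 encodes a cytoplasmic retinoic acid binding protein that is abundant in cranial neural crest mesenchyme of the pharyngeal arches and in part of the splanchnic mesoderm.

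The 215 cells were spread unevenly. There were 154 in Wt1, 23 in Wt2, none in Ho1 and 38 in Ho2. As a share of kept cells this was 1.86% in Wt1, 0.336% in Wt2 and 0.637% in Ho2, with exact 95% intervals of 1.58% to 2.17%, 0.213% to 0.504% and 0.451% to 0.873%. In Ho1 the count was 0 of 6933 cells, an upper limit of 0.0433% taken as 3 counts, and the exact 95% interval reached 0.0532%. These intervals and limits cover counting error only. The mean was 1.10% ± 1.08 (SD, n = 2) in Wt and 0.318% ± 0.450 (SD, n = 2) in Ho, and the groups overlapped (two-sided exact permutation test, p = 0.667, where 0.333 is the smallest p that 2 against 2 libraries can give). Out of the Crabp1-high cells, Foxf1+ cells made up 13.7% in Wt1, 37.7% in Wt2, 0 of 38 cells in Ho1, which allows up to 7.89% by 3 counts and 9.25% by the exact interval, and 44.2% in Ho2 (exact permutation p = 1.00).

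**Figure D1:**
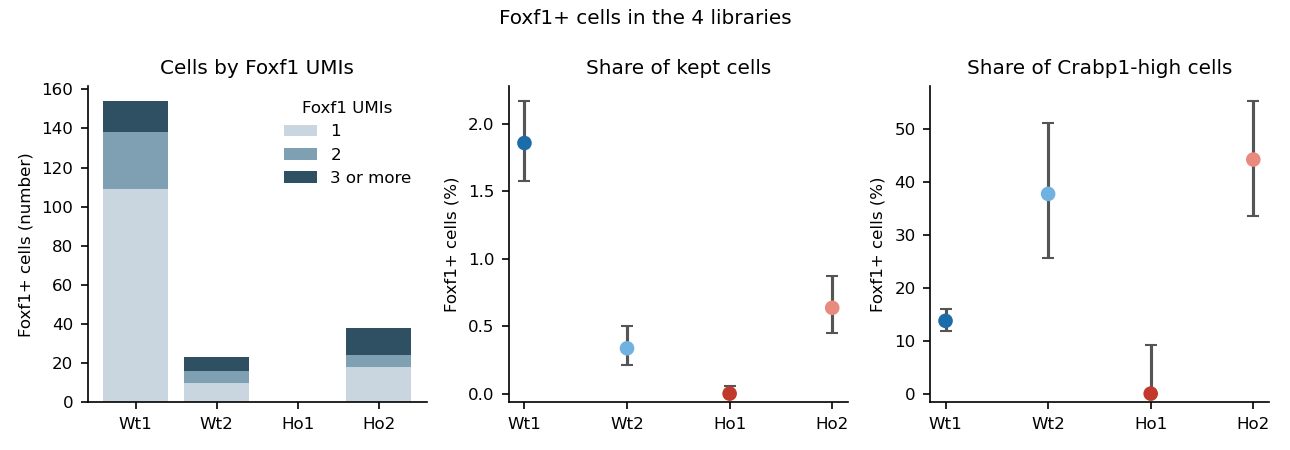
Left, number of Foxf1+ cells per library, split by the number of Foxf1 UMIs in the cell. Middle and right, their share of kept cells and of Crabp1-high cells in percent, with exact 95% intervals; Wt1 holds 154 of the 215 cells and Ho1 none.

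Ho1 was low in Foxf1 throughout. Over all kept cells Foxf1 stood at 16.5 CPM (UMIs per 1000000 UMIs summed) for Wt1, at 7.28 CPM for Wt2 and at 24.0 CPM for Ho2, but at 0.425 CPM for Ho1. Under the same limits on the other genes Ho1 held 13 cells with a Foxf1 UMI, all with 2 or fewer Crabp1 UMIs. Among kept cells, cells with an Epcam UMI (an epithelial gene) were 9.85% of kept cells for Wt1, 4.82% for Wt2 and 7.27% for Ho2, against 1.08% for Ho1. Likewise cells with an Isl1 UMI were 36.4%, 31.4% and 35.2% of those 3 libraries and 12.2% of Ho1. Ho1 was thus lowest in all 3 genes, and the part that the extent of dissection had in this was not tested. Ho1 was also the only library with Xist RNA in these cells: its Foxf1-negative cells held 201 Xist UMIs, and the Foxf1-negative and Foxf1+ cells of the other 3 libraries held none. Ddx3y, on the Y chromosome, had UMIs in the Foxf1+ cells of all 3 libraries that held any.

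Most Foxf1+ cells passed the Foxf1 limit by a single molecule. In Wt1, 109 cells had 1 Foxf1 UMI, 29 had 2 and 16 had 3 or more. In Wt2 the numbers were 10, 6 and 7, and in Ho2 they were 18, 6 and 14. Free RNA can give a UMI to a cell that does not make the transcript, and the share of cardiomyocyte cells with a Foxf1 UMI ran from 0.505% (Ho1) to 1.42% (Ho2), and that of endothelial cells from 0.409% (Ho1) to 2.32% (Ho2). The shares among Crabp1-high cells of Wt1, Wt2 and Ho2 lay above these. The median cell held 13107 UMIs among the Foxf1+ cells of Wt1, 14368 among its cardiomyocytes and 13281 among its endothelial cells. With each cell thinned to 2000 UMIs, Foxf1 was seen in 3.66%, 9.84% and 12.8% of all Crabp1-high cells of Wt1, Wt2 and Ho2, a set chosen without regard to Foxf1, and in at most 0.371% of cardiomyocyte and 0.582% of endothelial cells of any library. At the edge of the Crabp1 limit, 22 Foxf1+ cells of Wt1, 8 of Wt2 and 11 of Ho2 had exactly 3 Crabp1 UMIs, and 46, 13 and 7 further cells with Foxf1 had exactly 2 and were left out. The limit on Isl1 took away the most cells: of the cells with Crabp1 and Foxf1 at these levels, 289 in Wt1, 170 in Wt2 and 204 in Ho2 had Isl1 RNA. None of the 215 cells was called a doublet, and 3 had a barcode that also occurred in another library.

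Summed over the cells, the libraries gave 2100331 UMIs in Wt1, 312524 in Wt2 and 580379 in Ho2. Foxf1, on chromosome 8 from 121084386 to 121088144 (plus strand, mm10), was at 108 CPM in Wt1, 150 CPM in Wt2 and 146 CPM in Ho2. Crabp1, on chromosome 9 from 54764748 to 54773110 (plus strand), was at 923 CPM in Wt1, 352 CPM in Wt2 and 448 CPM in Ho2, so Wt1 stood above the other two for Crabp1 and below them for Foxf1.

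The question of what sets Foxf1+ cells apart from their Crabp1-high neighbours was put to the 3 libraries that held at least 20 cells of each class, as UMI sums paired within a library. Genes of the hedgehog lists differed in both directions. Ptch1, Gli1, Osr1, Hsd11b2 and Foxc1 were called higher in Foxf1+ cells and Ccnd1 lower, while Smo, Gli3 and Gas1 were not called. The call was lost for Gli1 without Wt2, for Foxc1 without Wt2 or without Ho2, and for Ccnd1 without Ho2. The matrix genes Postn and Hapln1 and the contractile genes Acta2 and Myl7 were among the other genes called lower. Of 6349 genes tested, 103 passed the edgeR quasi-likelihood test at a Benjamini-Hochberg adjusted p under 0.05, which is 1.62% of them; 33 were higher (0.52%) and 70 lower (1.1%). Without the library block no gene passed, and 262 had an unadjusted p under 0.05; with cells thinned to 2000 UMIs none of 1411 tested genes passed.

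Ptch1, the hedgehog receptor and a feedback gene, lies on chromosome 13 from 63508328 to 63573598 (minus strand). In Foxf1+ cells it was at 109 CPM in Wt1, 86.4 CPM in Wt2 and 89.6 CPM in Ho2, from 228, 27 and 52 UMIs. In Foxf1-negative cells it was at 29.9 CPM in Wt1, 17.9 CPM in Wt2, 24.4 CPM in Ho2 and 10.2 CPM in Ho1. The classes did not overlap, and the log2 fold change was 1.90 ± 0.20 (SE) with an adjusted p of 7.1e-06 in edgeR's quasi-likelihood test. A Ptch1 UMI was found in 97 of 154 cells in Wt1, 13 of 23 in Wt2 and 21 of 38 in Ho2.

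Gli1, the transcription factor whose own gene responds to the pathway, lies on chromosome 10 from 127329882 to 127341974 (minus strand). It was at 14.3 CPM in Wt1, 32.0 CPM in Wt2 and 17.2 CPM in Ho2, against 5.97, 2.98 and 4.07 CPM in the Foxf1-negative cells of the same libraries and no UMI in those of Ho1. The log2 fold change was 1.64 ± 0.41 (SE, edgeR adjusted p = 0.043). The call rested on few UMIs, 30, 10 and 10, and was lost without Wt2, with an edgeR adjusted p of 0.108. Cells with both a Gli1 and a Ptch1 UMI numbered 31, and 141 of the 215 had at least one of them. Gli1 was not part of the limits that chose the cells. It is, however, among the markers given for them, and the cells were set with earlier results of these data known. Its higher level is therefore not independent support for their name.

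Other hedgehog genes were measured with less depth or did not pass. Hhip, a secreted hedgehog antagonist induced by the pathway, gave 13, 5 and 8 UMIs in Foxf1+ cells of Wt1, Wt2 and Ho2, or 6.19, 16.0 and 13.8 CPM, and 14, 0 and 1 UMIs in the Foxf1-negative cells. Foxf2, the paralog of Foxf1, gave 15, 4 and 9 UMIs, or 7.14, 12.8 and 15.5 CPM, against 12, 0 and 2. Both were higher in Foxf1+ cells of every library, but neither passed the filter on low counts. Smo, the signal transducer, was at 50.5, 38.4 and 58.6 CPM in Foxf1+ cells and 54.7, 32.7 and 31.2 CPM in Foxf1-negative ones, with a log2 fold change of 0.17 ± 0.23 (edgeR adjusted p = 0.952). For Gli3, the chief repressor of the pathway, the log2 fold change was 0.27 ± 0.27, and for the co-receptor gene Gas1 it was -0.48 ± 0.26, with edgeR adjusted p-values of 0.902 and 0.656. Shh itself had no UMI in either class in any library.

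**Figure D2:**
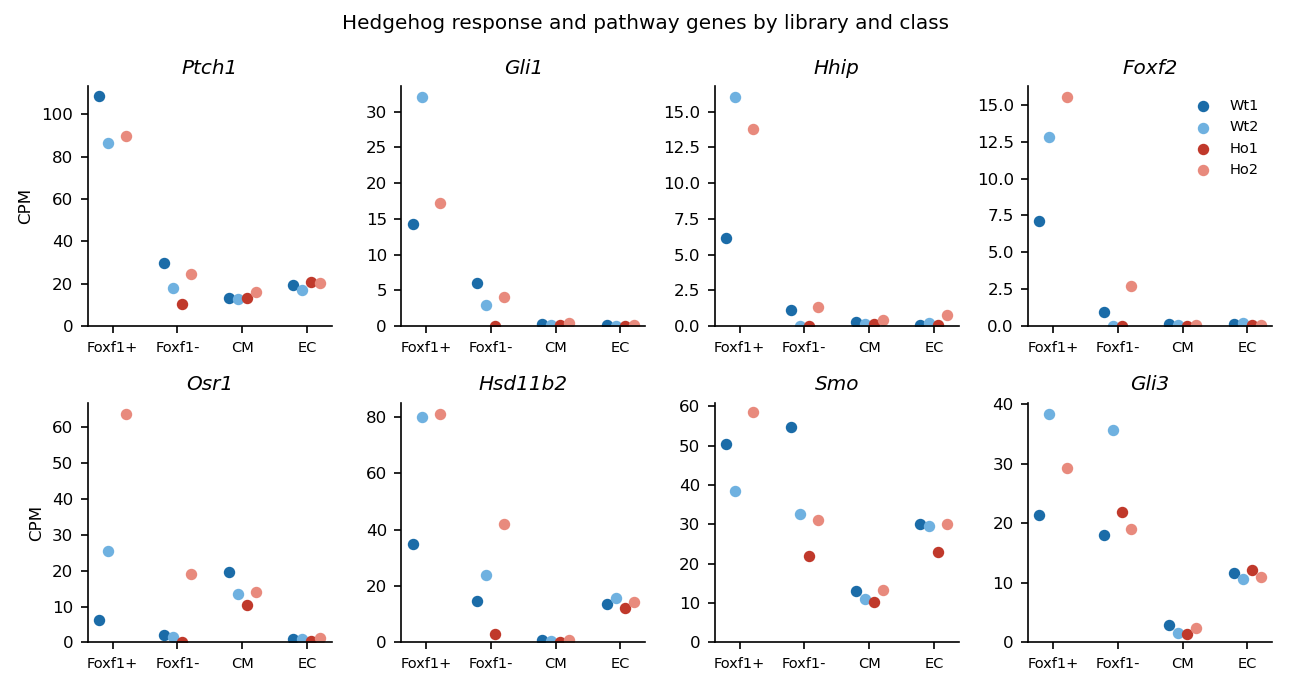
Level of 8 hedgehog pathway and response genes in CPM (linear axes from 0), each point 1 library, in Foxf1+ cells, Foxf1-negative Crabp1-high cells (Foxf1-), cardiomyocytes (CM) and endothelial cells (EC). Ptch1, Gli1, Hhip and Foxf2 are higher in Foxf1+ cells of Wt1, Wt2 and Ho2 than in the other classes, and Ho1 has no Foxf1+ cells.

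Counted over the lists, 3 of 12 genes for hedgehog ligands, receptors and co-receptors were tested and 1 of them, Ptch1, was called higher. Of the 19 hedgehog effectors and targets 12 were tested: 4 were called higher (Gli1, Osr1, Hsd11b2 and Foxc1) and 1 lower, and the median log2 fold change was 0.25 beside 0.00 over all genes tested. The gene called lower was Ccnd1, a cell cycle cyclin, at 150, 131 and 114 CPM in Foxf1+ cells of Wt1, Wt2 and Ho2 and at 155, 341 and 329 CPM in Foxf1-negative cells, a log2 fold change of -0.86 ± 0.20 (edgeR adjusted p = 0.025). Wt1 showed almost none of that difference. Hsd11b2, which inactivates glucocorticoids, was at 34.8, 80.0 and 81.0 CPM in Foxf1+ cells against 14.7, 23.8 and 42.1 CPM, a log2 fold change of 1.22 ± 0.22 (edgeR adjusted p = 0.0028).

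Osr1, a zinc finger factor of the splanchnic mesoderm at the venous side of the heart and in the early lung field, differed between the libraries. It was at 6.19 CPM in Wt1, 25.6 CPM in Wt2 and 63.8 CPM in Ho2 in Foxf1+ cells, against 1.94, 1.49 and 19.0 CPM. The log2 fold change was 1.90 ± 0.42 (edgeR adjusted p = 0.014). In Wt2, 7 of its 8 UMIs lay in 1 cell. Cardiomyocytes also carried Osr1 RNA, as the plot by class shows, so this gene alone does not mark the class.

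Among called genes with a mean of at least 20 CPM, with predicted genes left out, the largest rises were in Saa1 and Saa2. 9130024F11Rik, not part of this ranking, was called with a log2 fold change of 2.02. Saa1 and Saa2 encode secreted serum amyloid A proteins. Saa1 was at 35.7, 35.2 and 43.1 CPM in Foxf1+ cells of Wt1, Wt2 and Ho2 and at 6.4, 1.5 and 10.9 CPM in Foxf1-negative cells, a log2 fold change of 2.48 ± 0.32 (edgeR adjusted p = 7.7e-05). Saa2 was at 22.4, 60.8 and 29.3 CPM against 7.2, 1.5 and 10.9 CPM, a log2 fold change of 1.97 ± 0.38 (edgeR adjusted p = 0.0045). Over all kept cells of Ho1 they had 4 and 2 UMIs, against 892 and 768 in Wt1. The 2 genes are close paralogs with nearly the same sequence, and how reads were divided between them is uncertain.

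Saa1, Saa2 and Ptch1 were called higher in Foxf1+ cells, as Gli1 was, and whether they vary with Gli1 was not tested. The stretches from 250 bases before to 50 bases after their start sites are shown. They are RefSeq windows on GRCm38.p6, written 5′ to 3′ on the strand of the gene. Capitals mark ACCACCC, or GGGTGGT where it lies on the other strand, which is the core of the GLI binding motif GACCACCCA.
Saa1, chr7:46742931-46743230, minus strand: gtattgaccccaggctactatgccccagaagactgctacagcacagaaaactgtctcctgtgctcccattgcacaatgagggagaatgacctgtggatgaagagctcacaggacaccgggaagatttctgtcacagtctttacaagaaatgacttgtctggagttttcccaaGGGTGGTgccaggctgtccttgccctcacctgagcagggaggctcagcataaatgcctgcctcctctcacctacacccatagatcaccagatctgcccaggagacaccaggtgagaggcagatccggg
Saa2, chr7:46751583-46751882, plus strand: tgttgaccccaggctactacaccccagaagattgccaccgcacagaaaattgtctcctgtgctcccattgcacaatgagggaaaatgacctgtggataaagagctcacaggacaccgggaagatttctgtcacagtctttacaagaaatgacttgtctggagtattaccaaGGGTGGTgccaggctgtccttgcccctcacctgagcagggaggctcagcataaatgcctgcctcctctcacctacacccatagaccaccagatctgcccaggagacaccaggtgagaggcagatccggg
Ptch1, chr13:63565686-63565985, minus strand: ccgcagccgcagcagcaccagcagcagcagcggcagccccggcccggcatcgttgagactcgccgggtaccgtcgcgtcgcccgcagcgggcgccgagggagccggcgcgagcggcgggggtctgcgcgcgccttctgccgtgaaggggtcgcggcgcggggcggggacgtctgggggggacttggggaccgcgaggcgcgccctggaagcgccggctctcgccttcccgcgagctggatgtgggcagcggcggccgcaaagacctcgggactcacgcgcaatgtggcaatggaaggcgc
The Saa1 and Saa2 windows differ by 14 single-base edits over 300 bases, and each holds the core once, starting 78 and 79 bases before the start site. The Ptch1 window, which lies inside the span annotated for the gene and not at its outermost start, holds none. Of the 33 genes called higher 20 had a window, and 3 of these held the core on either strand (Saa1, Saa2 and Ndn), as did 5 of the 49 genes called lower that had one. The share over all 27025 genes with a window was 5.31%. The whole motif was in 0.253% of 32851 windows and in none of the called-higher genes. A match is a run of letters and says nothing of binding.

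Cxcl12, a chemokine that guides migrating cells, was at 200, 378 and 260 CPM in Foxf1+ cells of Wt1, Wt2 and Ho2 against 75.7, 135 and 160 CPM, a log2 fold change of 1.18 ± 0.15 (edgeR adjusted p = 7.7e-05). Fgfr2, a receptor for epithelial FGFs, and Sulf1, an enzyme that trims heparan sulfate, had log2 fold changes of 1.26 ± 0.27 and 1.37 ± 0.30. Mme, a membrane peptidase, rose by 1.75 ± 0.26, and Limch1 and the non-coding Foxd2os by 1.17 and 1.55. In the ranking at a mean of at least 20 CPM, with predicted genes left out, the 12 largest rises also took in Ndn. Ndn, a growth-restraining factor that is expressed from the paternal allele, was at 218, 672 and 493 CPM against 135, 177 and 200 CPM. Magel2, Peg3, Plagl1 and Nnat, also imprinted genes expressed from the paternal allele, were called higher as well, with log2 fold changes of 2.13 ± 0.39, 0.67 ± 0.12, 1.13 ± 0.24 and 0.73 ± 0.18, and were picked out after their values were seen, with no list of imprinted genes counted. Cdkn1c, an imprinted gene expressed from the maternal allele, was called lower, with a log2 fold change of -0.66 ± 0.17 (edgeR adjusted p = 0.045), although Wt1 was higher in Foxf1+ cells.

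Transcription factors were called in both directions, with Hand1, Osr1 and Meis2 among the higher and Tcf21, Gata6, Twist1 and Msx1 among the lower. The direction of Tcf21 turned, to a log2 fold change of 0.08, when the Foxf1 classes were set on thinned cells. Hand1, which acts in splanchnic and heart-forming mesoderm, was at 41.4, 253 and 119 CPM in Foxf1+ cells of Wt1, Wt2 and Ho2 against 17.7, 59.5 and 93.7 CPM, a log2 fold change of 1.16 ± 0.23 (edgeR adjusted p = 0.0053; 0.061 without Wt2). Of 19 second heart field genes, 4 were tested, and Hand1 and Osr1 were the ones called higher. Tbx1, the pharyngeal mesoderm factor, did not pass the filter, at 6.19, 51.2 and 19.0 CPM against 4.18, 5.95 and 2.72 CPM, and Fgf8 and Nkx2-5 had 1 UMI or none per library in Foxf1+ cells.

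Of the 26 Hox and cofactor genes 10 were tested, 9 had a positive fold change, and among those called higher was the cofactor Meis2 (log2 fold change of 0.73 ± 0.14, edgeR adjusted p = 0.0034). Among the Hox genes, Hoxb2 was at 82.8, 118 and 84.4 CPM in Wt1, Wt2 and Ho2, Hoxa3 at 9.52, 12.8 and 10.3 CPM, and Hoxb5 at 7.62, 0 and 3.45 CPM, and Hoxb6 had no UMI in any Foxf1+ cell. No gene of the retinoic acid list passed, with 7 of 20 tested and a median log2 fold change of 0.15.

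No neural crest gene was called higher. Of 28, 10 were tested, and Twist1 and Msx1, factors of migratory and arch mesenchyme, were called lower, with log2 fold changes of -0.88 ± 0.15 and -0.96 ± 0.20 (edgeR adjusted p-values of 0.0020 and 0.011). Twist1 was at 189, 230 and 121 CPM in Foxf1+ cells of Wt1, Wt2 and Ho2 and at 261, 431 and 315 CPM in Foxf1-negative cells. RNA of this group was nevertheless present: Prrx1 was at 121, 54.4 and 41.4 CPM, and Dlx5 at 33.3 CPM in Wt1 and 3.45 CPM in Ho2, with 42 of 154 Wt1 cells holding a Dlx5 UMI. Sox10, an early crest gene, had 3 UMIs in Wt1 and none in Wt2 or Ho2.

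Foregut and lung mesenchyme factors, which the name splanchnic pharyngeal mesenchyme would lead one to look for, were mixed. Of 27 genes 10 were tested, with Osr1, Hand1 and Meis2 called higher and Tcf21 and Gata6 lower. Nkx2-3 had no UMI in any Foxf1+ cell, Wnt2b had 1 in all, and Tbx4 had 1, 0 and 4 UMIs in Wt1, Wt2 and Ho2. Barx1, a stomach and arch mesenchyme factor, was at 98.1 CPM in Wt1, had no UMI in Wt2 and was at 1.72 CPM in Ho2, and its level in the Foxf1-negative cells of Wt1 was 165 CPM. Tcf21 had 19, 14 and 46 UMIs and Gata6 27, 20 and 42 UMIs in Foxf1+ cells of Wt1, Wt2 and Ho2, but all 14 Tcf21 UMIs of Wt2 lay in 1 cell and those of Wt1 in 10 of 154 cells. The counts of this list went in both directions, and the cells are therefore called by the gene that chose them.

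The genes called lower were of several kinds, and most of the 70 were in none of the matrix, cardiomyocyte and smooth muscle lists. Pdlim3, an actin-bound muscle protein, was at 4.3, 154 and 24.1 CPM in Foxf1+ cells of Wt1, Wt2 and Ho2 and at 64.5, 1439 and 865 CPM in Foxf1-negative cells, a log2 fold change of -3.99 ± 0.23 (edgeR adjusted p = 1.8e-10). Postn, a matrix protein of the cushions, was at 6.19, 38.4 and 3.45 CPM against 14.8, 217 and 130 CPM (log2 fold change -2.64 ± 0.36), and Hapln1, which links hyaluronan to proteoglycans, at 6.19, 41.6 and 3.45 CPM against 16.0, 301 and 273 CPM (-3.22 ± 0.39). In Wt2, 41 of the 48 Pdlim3 UMIs of Foxf1+ cells lay in 1 cell, without which it was at 23.9 CPM, and all 13 Hapln1 UMIs lay in 1 cell. Igfbp7 and Stmn4 fell by 3.39 and 2.71 on the log2 scale, and Tbx20, a heart transcription factor, by 2.09. Tubb3, Plaat3, Fbln2, Anxa2, Hspb1 and Spint2 completed the 12 largest falls, with log2 fold changes from -2.07 to -1.90.

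Of 28 matrix and mesenchyme genes 22 were tested, 2 were called higher (Cxcl12 and Col9a1) and 7 lower, with a median log2 fold change of -0.29. Acta2, smooth muscle actin, was called lower among 7 of 12 smooth muscle genes tested, at 81.9, 589 and 336 CPM in Wt1, Wt2 and Ho2 against 140, 1739 and 1395 CPM (log2 fold change -1.50 ± 0.16, edgeR adjusted p = 7.9e-06). Of 15 cardiomyocyte markers 9 were tested and 2 had a positive fold change. Tnni1, Myl7 and Actc1 were called lower, Myl7 at 103, 170 and 150 CPM against 139, 730 and 349 CPM. The summed level of the 15 cardiomyocyte markers in Foxf1+ cells was 411, 771 and 527 CPM, with Myl7 or Actc1 the most abundant of them, and its part in these differences was not tested. Of 12 endothelial markers 3 were tested, 1 was positive and Ramp2 was called lower, with a log2 ratio of only -0.05 in Wt1. Of 13 epithelial markers 2 were tested and Krt8 was called lower. Krt8 turned to a log2 fold change of 0.16 with the classes set on thinned cells. Of 11 neural markers only Tubb3 was tested, and it was called lower. Krt8 and Tubb3 were also leading genes of an Acta2 cluster among the Foxf1+ cells, described below, so these single genes are not read as a cell type. Of 9 macrophage markers 8 were at 0 in Wt1 and all 9 in Wt2 and Ho2.

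These falls depended on the library. Of the 70 genes called lower, 68 fell in all 3 libraries and 68 changed least in Wt1. The median log2 ratio of the 70 was -0.43 in Wt1, -1.84 in Wt2 and -1.57 in Ho2. The rises were more even: all 33 genes rose in all 3 libraries, with medians of 0.81, 1.62 and 0.84. The Foxf1-negative cells were not alike across libraries: in Wt1 they had Barx1 at 165 CPM, Dlx5 at 55.6 CPM and Tcf21 at 15.9 CPM, whereas in Wt2 and Ho2 Barx1 was at 1.49 and 6.79 CPM, Dlx5 at 1.49 and 4.07 CPM and Tcf21 at 177 and 196 CPM. Leaving out Wt1 gave 664 called genes, of which 100 were among the 103. Leaving out Wt2 gave 99 and leaving out Ho2 gave 90, with 74 and 71 shared. Among the genes named here, without Wt2 the edgeR adjusted p rose to 0.108 for Gli1, 0.061 for Hand1, 0.112 for Foxc1, 0.169 for Gata6, 0.062 for Plaat3, 0.061 for Ramp2, 0.062 for Sulf1, 0.167 for Plagl1 and 0.934 for Nnat. Without Ho2 it rose to 0.163 for Ccnd1, 0.115 for Foxc1, 0.257 for Krt8 and 0.178 for Spint2, and without Wt1 to 0.118 for Msx1. Ptch1, Hsd11b2, Saa1, Saa2 and Cxcl12 were called whichever library was left out, and Osr1 was called without Wt1 or Wt2 and did not pass the filter on low counts without Ho2.

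**Figure D3:**
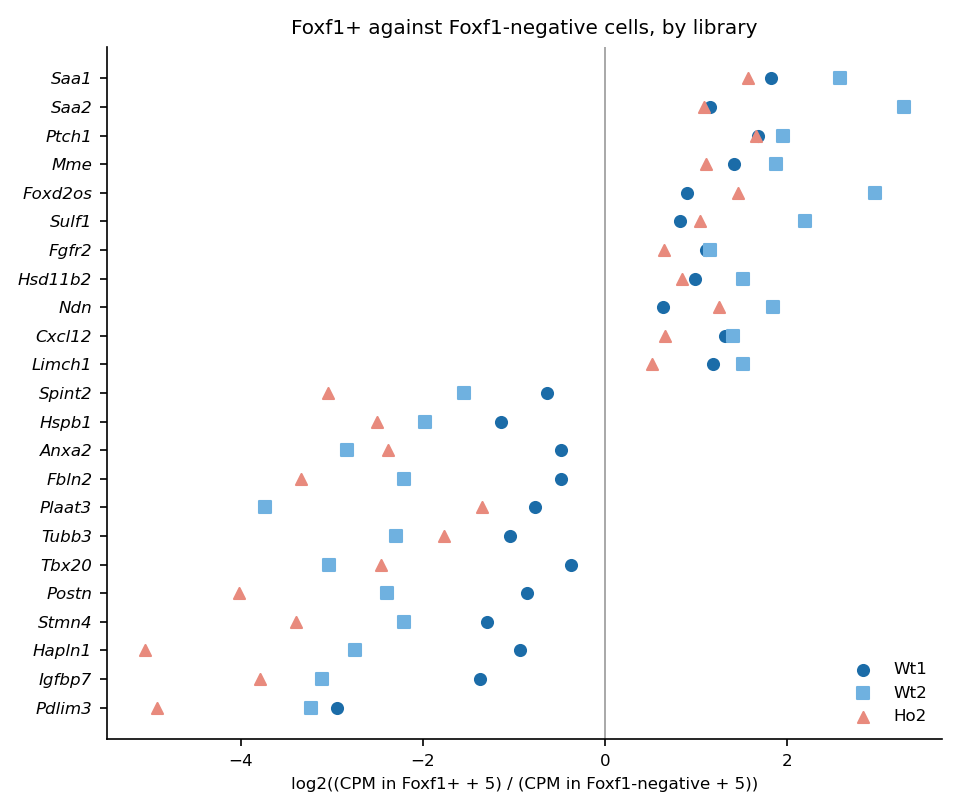
Log2 ratio of normalised CPM (5 added to each) between Foxf1+ and Foxf1-negative cells of the same library for called genes among the largest rises and the largest falls, 1 symbol per library. The genes were chosen as moving alike in every library, so the shared side of 0 follows from the choice; Wt1 lies nearest to 0 in the falls.

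Few genes of the other lists passed. None of the S phase (37 of 38 tested) or G2/M genes (48 of 50) was called, but 32 of the 37 and 33 of the 48 had a positive fold change beside 50.7% of all genes tested, with medians of 0.21 and 0.15 on the log2 scale beside 0.00. None of 24 tested cholesterol synthesis genes was called, with 17 positive and a median of 0.17, nor any of 11 primary cilium genes, with a median of 0.05. The signalling lists gave single genes: of 14 tested BMP genes Msx1 was called lower (median log2 fold change -0.08), of 8 FGF genes Fgfr2 was called higher (0.05), and of 8 Wnt genes none was called (0.08). Of the head and branchiomeric muscle list 2 of 13 genes were tested and Tcf21 was called lower. No epicardial or erythroid marker passed the filter, and neither of the 2 tested sex-linked genes was called. In the list for dissociation and heat shock, 1 of 14 tested genes was called, Klf6, which was lower.

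The Foxf1+ cells were also split by Foxf1 UMIs, the value that chose them, so the bands describe the selection. Summed over the libraries, cells with 1, 2 and at least 3 Foxf1 UMIs had Ptch1 at 83.9, 106 and 163 CPM. Gli1 was at 12.3, 17.4 and 31.1 CPM in these bands. The median depth of the 3 bands was 13559, 13340 and 15071 UMIs per cell, and within the libraries it was 13420, 13446 and 10935 in Wt1, 12898, 12995.5 and 15071 in Wt2 and 15642.5, 13040 and 18382.5 in Ho2. Within the libraries the Gli1 values rested on few UMIs, 20, 5 and 5 in Wt1, 3, 3 and 4 in Wt2 and 0, 2 and 8 in Ho2, and no order is read from them. Ptch1 was at 96.9, 100.2 and 222 CPM in Wt1, 41.8, 155 and 77.7 CPM in Wt2 and 24.4, 79.6 and 155 CPM in Ho2, so the bands did not fall in the same order in every library. Over the libraries together Hhip was at 5.3, 8.7 and 20.1 CPM, Ndn at 231, 397 and 536 CPM and Hand1 at 53.9, 97.5 and 143 CPM, but within Wt2 Hand1 ran the other way, at 285, 266 and 204 CPM, and within Ho2 Ndn was at 353, 610 and 591 CPM. Barx1 came almost wholly from Wt1, where it was at 92.9, 154 and 16.2 CPM. The libraries take different parts in the bands, Wt1 giving 109 of the 137 cells with 1 Foxf1 UMI and 16 of the 37 with at least 3, and no test was made, since Foxf1 chose the cells.

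Leiden clustering of the 215 cells gave 5 clusters, described here by their leading genes and not tested. Cluster 1, of 46 cells from Wt1 (19), Wt2 (13) and Ho2 (14), was led by the contractile genes Acta2 (827 CPM inside, 40.1 CPM outside), Tagln and Myl9, and had Hand1 at 188 CPM, Cxcl12 at 411 CPM and Tbx1 at 42.0 CPM. Cluster 2, of 61 cells, was led by mitotic genes such as Nusap1, Prc1 and Ube2c (1081 CPM inside, 290 CPM outside). Cluster 3, of 61 cells, held 60 cells of Wt1 and 1 of Ho2, and was led by Barx1 (167 CPM inside, 31.1 CPM outside) and Dlx5 (47.9 CPM inside, 15.8 CPM outside), with Crabp1 at 1327 CPM. Cluster 4, of 23 cells, was led by genes of low level with no common role.

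Cluster 5, of 24 cells, held 16 of the 38 Ho2 cells, 7 of the 154 Wt1 cells and 1 of the 23 Wt2 cells. It was led by Tcf21 (197 CPM inside, 3.4 CPM outside), Wnt2 (113 CPM inside, none outside) and Osr1 (138 CPM inside, 3.4 CPM outside), followed by Rspo2, Rspo1, Igfbp5 and Aldh1a2, and Tbx5 was at 36.6 CPM against 0.4 CPM. Wnt2, Tbx5 and Osr1 are known from the mesoderm between the venous pole of the heart and the lung bud. Hand1 had no UMI in this cluster. No cell held both a Barx1 and an Osr1 UMI, and 5 held both Barx1 and Hand1. Of the 41 cells with Barx1, 40 were in Wt1, where 9 of 154 cells held Osr1 and 37 held Hand1. Whether these joint counts depart from chance was not tested. Ptch1 was found in all 5 clusters, from 67.6 CPM in cluster 5 to 138 CPM in cluster 4, and Gli1 from 11.2 to 20.3 CPM.

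**Figure D4:**
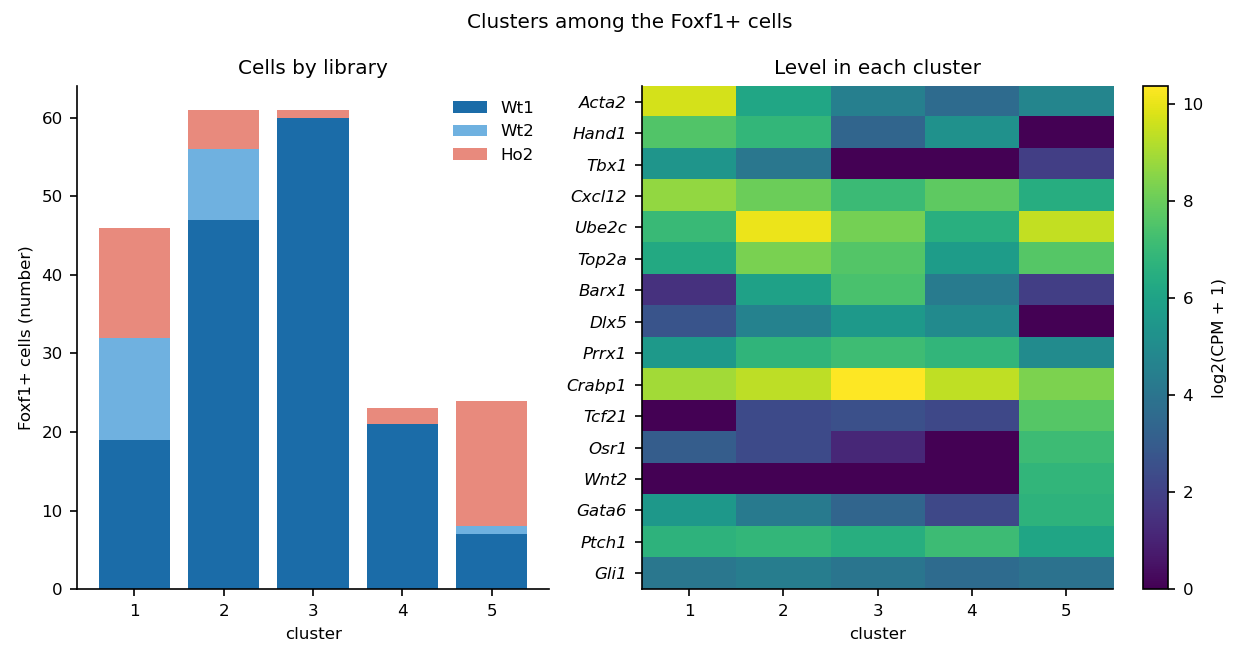
Left, number of Foxf1+ cells in each of 5 clusters by library. Right, level of 16 genes in each cluster as log2(CPM + 1); Barx1 and Dlx5 are high in cluster 3, which is nearly all Wt1, and Tcf21, Osr1 and Wnt2 in cluster 5, which is mostly Ho2.

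The comparison of Ho with Wt asks whether the CYP51 substitution changed these cells, and it had 1 Ho library, Ho2, against Wt1 and Wt2. The lone Ho library was assumed to vary like the Wt ones, so the difference has no replicate check on the Ho side, and it cannot be told apart from a difference between dissections. Of 6640 genes tested 8 passed (edgeR, 0.12%), 7 higher and 1 lower in Ho2, and 225 had an unadjusted p under 0.05. DESeq2 called 1 gene, Terf2ip, and not Wnt2, Osr1, Jag1, Igfbp5 or Pbld1. Wnt2, Osr1, Jag1 and Igfbp5 were higher in Ho2. Neither the hedgehog feedback genes Ptch1 and Gli1 nor Cyp51 and the tested genes of its pathway passed.

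Cyp51, on chromosome 5 from 4081145 to 4104746 (minus strand), was at 107 CPM in Wt1, 112 CPM in Wt2 and 79.3 CPM in Ho2, a log2 fold change of -0.49 ± 0.30 (edgeR adjusted p = 1.00). The substitution is a coding change, so its level does not check the genotype. Ho2 lay below both Wt libraries for Cyp51, Hmgcs1 and Hand2, above both for Smo, Insig1 and Bmp4, and between them for Ptch1 and Sqle, among others. The share of all tested genes at which Ho2 lay outside both Wt libraries is not given here, so nothing is concluded from this. Hmgcs1, at the entry of the pathway, was at 124, 134 and 110 CPM (log2 fold change -0.24 ± 0.28). For further sterol genes the log2 fold change was -0.17 ± 0.39 for Sqle and 0.24 ± 0.36 for Insig1. Of 28 cholesterol synthesis and SREBP target genes 23 were tested and none was called. A positive fold change was seen in 6 of the 23, beside 48.9% of all genes tested, and the median was -0.24 beside -0.01. The Foxf1-negative cells, with both Ho libraries, leaned the same way: 4 of 24 tested genes of this list were positive, none was called, and the median was -0.20.

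The test called neither Ptch1 nor Gli1. Their log2 fold changes in Ho2 against the Wt libraries were -0.21 ± 0.30 and -0.16 ± 0.72, and both changed sign, to 0.06 and 0.36, when at least 2 Foxf1 UMIs were required, with a minimum of 5 cells. Smo, Gli3 and Gas1 had log2 fold changes of 0.28 ± 0.36, 0.16 ± 0.48 and -0.15 ± 0.55. Hand2 was at 86.2, 99.2 and 77.5 CPM and Bmp4, a growth factor of pharyngeal and outflow mesoderm, at 20.5, 60.8 and 74.1 CPM in Wt1, Wt2 and Ho2, with log2 fold changes of -0.25 ± 0.30 and 1.21 ± 0.45. Hhip, Cdon, Boc, Gli2, Foxf2 and Tbx5 did not reach the filter on low counts. In this comparison changes of the size of these standard errors were not detectable.

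Wnt2, a ligand of lung and venous pole mesenchyme, had no UMI in Wt1, 5 UMIs in Wt2 (16.0 CPM), all in 1 cell, and 35 UMIs in Ho2 (60.3 CPM), in 7 cells. Its log2 fold change was 4.52 ± 0.91 (edgeR adjusted p = 0.039) and depends on the prior count because Wt1 was at 0. Osr1 rose by 2.65 ± 0.53 on the log2 scale (edgeR adjusted p = 0.037), with UMIs in 9 of 154 cells in Wt1, 2 of 23 in Wt2 and 14 of 38 in Ho2. Jag1, a Notch ligand, was at 7.1, 6.4 and 68.9 CPM (log2 fold change 3.22 ± 0.48, edgeR adjusted p = 0.0013), and Igfbp5, which binds insulin-like growth factors, at 19.5, 44.8 and 134 CPM (log2 fold change 2.36 ± 0.36, edgeR adjusted p = 0.0013).

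These 4 genes are among the leading genes of cluster 5. Outside cluster 5 Wnt2 had no UMI in any library, Osr1 was at 3.0 CPM in Wt1, 3.3 CPM in Wt2 and 6.2 CPM in Ho2, and Igfbp5 at 18.3, 3.3 and 21.8 CPM. Jag1 outside it was at 6.9, 6.7 and 21.8 CPM, from 14, 2 and 7 UMIs. Since these genes lead the cluster, low levels outside it follow from how it was made. Inside it, the 16 Ho2 cells were also above the 7 Wt1 cells. Wnt2 was at 135 CPM against none and Osr1 at 135 against 83.9 CPM. Jag1 was at 127 against 12 CPM and Igfbp5 at 274 against 48.0 CPM. In this order the Wt1 cells held only 0, 7, 1 and 4 UMIs, and the Ho2 cells 35, 35, 33 and 71. The 1 Wt2 cell of the cluster was at 389 CPM for Wnt2, 545 CPM for Osr1 and 1011 CPM for Igfbp5 and had no Jag1 UMI. Ho2 had a larger share of its cells in the cluster than Wt1 or Wt2. Within it, the Ho2 cells lay above the Wt1 cells but, for Wnt2, Osr1 and Igfbp5, below the 1 Wt2 cell. Neither the share nor the levels were tested, since these genes lead the cluster and the values come from 1 Ho library. From the sums alone, more cells of a type and more RNA per cell cannot be told apart.

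Terf2ip and Gm15627, also called higher, rested on single cells. Terf2ip, a telomere protein gene on chromosome 8 from 112011398 to 112020528, was at 18.6, 9.6 and 188 CPM, with the lowest adjusted p of the comparison (edgeR, 1.2e-06), but 98 of its 109 UMIs in Ho2 lay in 1 cell, and without that cell Ho2 was at 19.5 CPM. All 28 UMIs of Gm15627, a predicted gene, lay in 1 cell of Ho2. Gm49708, another predicted gene, was by contrast spread widely, at 62.4, 92.8 and 284 CPM, and was found in 31 of 38 Ho2 cells. Pbld1, the one gene called lower, was at 42.9, 112 and 1.7 CPM, from UMIs in 13 of 154, 4 of 23 and 1 of 38 cells (log2 fold change -5.18 ± 0.86, edgeR adjusted p = 0.0047).

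**Figure D5:**
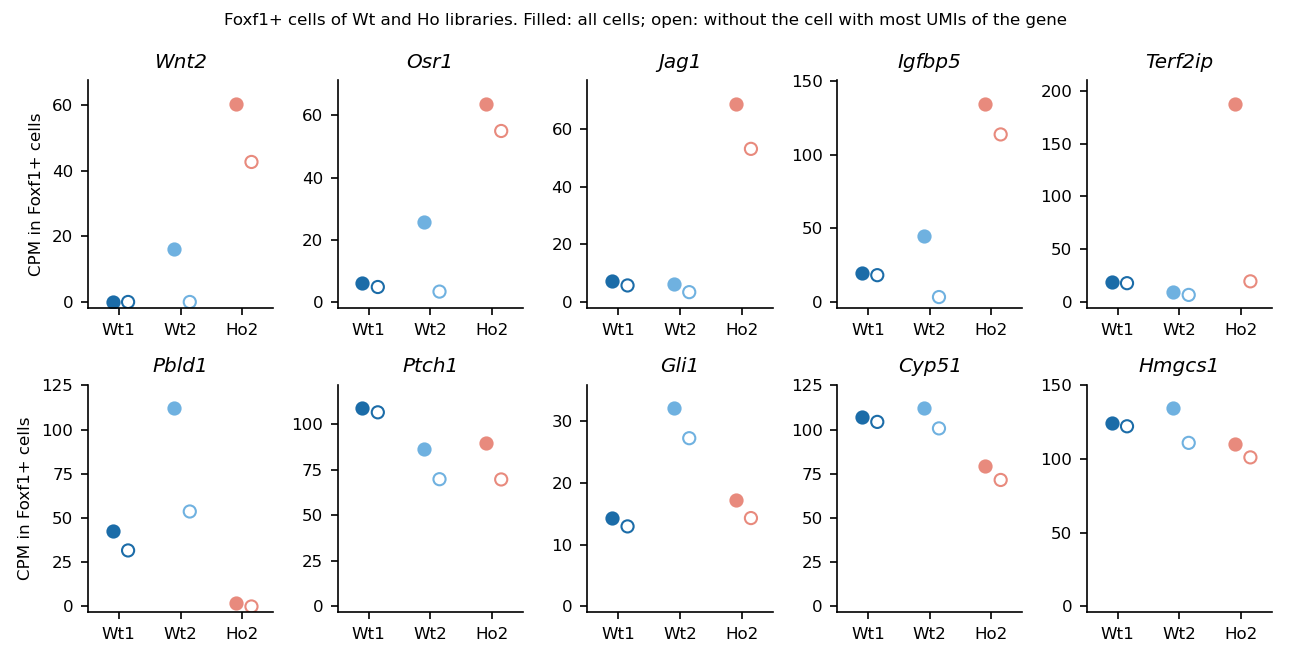
CPM in Foxf1+ cells of Wt1, Wt2 and Ho2 for 6 of the 8 called genes and for Ptch1, Gli1, Cyp51 and Hmgcs1; filled points use all cells, open points leave out the 1 cell with the most UMIs of that gene. Terf2ip in Ho2 drops from 188 to 19.5 CPM when that cell is left out, while Wnt2, Osr1, Jag1 and Igfbp5 stay highest in Ho2.

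Among genes that did not pass, the lowest p-values belonged to Dlk1 (log2 fold change -1.29 ± 0.30), Hand2os1 and Barx1 on the lower side and Tcf21 (2.19 ± 0.52), Tmem158 and Foxp1 on the higher side, with edgeR adjusted p-values from 0.186 to 0.214. Each of these 6 was called under another setting: Tcf21, Dlk1, Foxp1 and Hand2os1 with at least 10 UMIs in every sum (edgeR adjusted p-values of 3.1e-05, 0.034, 0.011 and 0.045), and Tcf21, Barx1 and Tmem158 with no filter on low counts (0.00074, 5.0e-08 and 0.0066). Barx1 shows how far the Wt libraries differed from each other, at 98.1 CPM in Wt1 and none in Wt2. Cluster 5 held 16 of the 38 Ho2 cells, 7 of the 154 Wt1 cells and 1 of the 23 Wt2 cells. In Ho2 it held all 46 Tcf21 UMIs, 24 of 29 for Tmem158 and 54 of 83 for Foxp1. By list, 12 of 27 foregut and lung mesenchyme genes were tested, 2 were called higher (Osr1 and Wnt2) and the median log2 fold change was 1.14; 15 of 28 neural crest genes were tested, none was called and the median was -0.79. In the hedgehog lists the medians were -0.15 over 3 receptor genes and 0.05 over 11 effectors and targets, with Osr1 alone called. No G2/M gene of 49 was called, with 9 positive beside 48.9% of all genes tested and a median of -0.30.

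In the Foxf1-negative cells, where both Ho libraries could be used, no gene of 6672 passed (edgeR, 0.0%), with 151 at an unadjusted p under 0.05 and none by DESeq2. The count was 74 with no filter on low counts, 506 without Wt2 (411 higher and 95 lower) and 6 without Wt1. By list, none of 48 tested G2/M genes had a positive fold change (median -0.73), and all 5 tested epicardial markers had one (median 1.77), beside 50.6% of all genes tested. Of the genes called in Foxf1+ cells, Wnt2 overlapped between genotypes here, at 3.18 and 4.46 CPM in Wt and 2.92 and 9.51 CPM in Ho, as did Jag1, at 14.7 and 47.6 CPM in Wt and 32.2 and 21.7 CPM in Ho. Osr1 was at 1.94 and 1.49 CPM in Wt1 and Wt2, had no UMI in Ho1 and was at 19.0 CPM in Ho2, so Ho2 alone stood above the Wt libraries. Terf2ip overlapped, at 16.9 and 17.9 CPM in Wt and 16.1 and 28.5 CPM in Ho, and Gm15627 had 3 UMIs in Wt1 and none in the other libraries. Igfbp5 did not, at 42.1 and 84.8 CPM in Wt and 156 and 158 CPM in Ho, nor did Gm49708, at 43.1 and 156 CPM in Wt and 216 and 175 CPM in Ho. Pbld1 did not overlap either, at 41.9 and 43.1 CPM in Wt1 and Wt2 and 5.85 and 2.72 CPM in Ho1 and Ho2. The share of all 6672 tested genes without overlap is not given here, so nothing is concluded from these. For 2 against 2 libraries a two-sided exact permutation p cannot be below 0.333. Over all kept cells Pbld1 was at 24.2 and 11.1 CPM in Wt and 17.8 and 15.2 CPM in Ho. The test of the difference itself, class by genotype, called no gene of 7850 (edgeR, 0.0%), with 201 at an unadjusted p under 0.05 and none by DESeq2. That count depended on the setting: it was 10 with RLE scaling, 6 with no filter on low counts, and 1 and 4 with at least 2 Foxf1 or at least 5 Crabp1 UMIs and a minimum of 5 cells.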

How the data were processed

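Single-cell RNA sequencing (10x Genomics, droplet-based) was done on hearts of E10.5 embryos, 2 Wt and 2 Ho libraries. Per the labels and the study's methods, the authors aligned the reads and counted UMIs with Cell Ranger 6.1.1 on GRCm38 (mm10), and the deposited files hold raw UMI counts per gene and barcode, with no normalisation; Seurat 4.1.0 is also named in their processing notes. The libraries held 109893733 (Wt1), 117034633 (Wt2), 127018819 (Ho1) and 107377100 (Ho2) UMIs. Groups and replicate numbers came from the labels.

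Barcodes with 500 to 6000 genes, 2000 to 50000 UMIs and at most 20% mitochondrial UMIs were kept, 8283, 6840, 6933 and 5969 cells. Doublets were called with Scrublet in scanpy 1.11.5 and left out only as an alternative. Counts were summed per library and class, with at least 20 cells. CPM in the text is UMIs per 1000000 UMIs of the summed cells, and the edgeR fit used its own TMM scaling. edgeR 4.0.16 in R 4.3.3 was used with TMM, filterByExpr and the quasi-likelihood test, Benjamini-Hochberg adjusted over all genes tested at 0.05; the class comparison had the library as a block. The 7 genes of the selection were not tested. SE is the fold change divided by the root of its F. DESeq2 1.42.0 was an alternative, as were RLE scaling, other filters, stricter limits and thinning. The procedure was also run on simulated counts, drawn from the pooled mean of each gene with the same spread for all genes. These held no differences in cell make-up between libraries, so they do not cover those seen here. Cardiomyocytes were cells with at least 20 Tnnt2 UMIs per 10000, and endothelial cells had at least 2 UMIs of Cdh5 and Pecam1, both without Crabp1 and without the markers of each other. Foxf1+ cells were clustered with Leiden on 20 components of 2000 variable genes at a resolution of 0.6.

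The Foxf1+ cells, the 26 gene lists and the limits were chosen with earlier results of these data known. Named genes were, for the classes, listed genes and the 12 largest changes per direction at a mean of at least 20 CPM moving alike in every library, leaving out predicted, mitochondrial, ribosomal, haemoglobin and sex-linked genes; for genotype, 20 set genes, the called genes and those of lowest p; some of these genes are not reported here. Positions are from GENCODE M21 on mm10, which held 99.6% of the 32285 deposited gene IDs. The libraries of a genotype are labelled as replicates, and nothing states that they came from separate embryos, so p-values measure the spread between these libraries only.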

Additional observations from a re-analysis of the deposited data

How the results depend on the processing

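The count of 103 genes called between Foxf1+ and Foxf1-negative cells was 245 with no filter on low counts, 55 with at least 10 UMIs in every sum, 47 with DESeq2 and 0 with cells thinned to 2000 UMIs or without the library block; leaving out 1 library gave 90 to 664. With a minimum of 5 cells, chosen after seeing the data, it was 33 with at least 5 Crabp1 UMIs and 38 with the Foxf1 classes set on thinned cells. For Ho against Wt in Foxf1+ cells the count of 8 was 5 with RLE and 28 with no filter. With at least 10 UMIs it was 14 (2 of them among the 8). DESeq2 gave 1 and thinned cells gave 1. With at least 2 Foxf1 UMIs and 5 cells the count was 4 (2 among the 8). With at least 5 Crabp1 UMIs and 5 cells it was 8, of which 3 were among the 8 of the main setting. In Foxf1-negative cells, 0 became 74 with no filter, and leaving out 1 library gave 0 to 506 (506 without Wt2, 6 without Wt1). The class by genotype test gave 10 genes with RLE, 6 with no filter, 1 with at least 2 Foxf1 UMIs and 4 with at least 5 Crabp1 UMIs, both with 5 cells. The cause of these shifts was not tested. Resolution 0.3 gave 3 clusters and 1.0 gave 7.

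Replicate 1 and replicate 2 are numbered in both genotypes, but 2 pairs are too few to show a pairing, and the correlation of the deviations of Wt1 and Ho1 over genes was -0.30. The replicate block in Foxf1-negative cells called 0 genes and 79 at an unadjusted p under 0.05, and the crossed replicate block, added after seeing the data, called 7. No paired analysis was possible for Foxf1+ cells because only 3 sums exist. No library could be left out there or in the class by genotype test, since both used the same 3 libraries. At the minimum of 20 cells, the stricter limit on Crabp1, for the class comparison the thinned classes, and for the genotype test in Foxf1+ cells and the class by genotype test the stricter limit on Foxf1 left too few libraries and were not run.

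The difference of the share among Crabp1-high cells (Ho minus Wt, -3.63 percentage points) was 0.766 with all limits on thinned cells, and ranged from -25.7 to 18.5 when 1 library was left out; the share of kept cells ranged from -1.54 to -0.0179 around -0.779. Among named genes of the class comparison, Tcf21 turned to 0.081, Krt8 to 0.16 and Gli3 to -0.033 with classes set on thinned cells, and Smo ranged from -0.075 (without Ho2) to 0.64 when 1 library was left out. In the genotype comparison, at least 2 Foxf1 UMIs gave log2 fold changes of 0.36 for Gli1, 0.061 for Ptch1, -0.60 for Gli3, -0.023 for Insig1 and -0.012 for Smo; at least 5 Crabp1 UMIs gave -0.19 for Smo, thinned cells 0.23 for Hmgcs1 and DESeq2 0.044 for Gas1. For the 48 genes named in the class comparison, 14 values from leaving out a library and 136 under other settings lost the call in the same direction; for the 25 of the genotype comparison 18 did, and 9 gained it. Depth limits the 23 cells of Wt2 most, where 3 UMIs are 9.60 CPM.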
